A study of Mus musculus with 6 samples.

Results

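The genes described here are the 73 protein-coding genes of the count table that carry the name of a TGF-beta, BMP, GDF, activin or inhibin ligand, of a receptor or SMAD protein of that family, or of a protein that holds, blocks or degrades one of these. They were taken from 55487 genes by symbol alone, but the family was chosen with earlier results of these data known. The libraries came from mouse lung tumours of the KP genotype, which both groups share. In the sgLkb1 group the tumours also carried a guide against Lkb1 (gene symbol Stk11), a kinase and lung tumour suppressor, and in the sgNeo group the control guide left Lkb1 wild type. Cells positive for GFP and negative for the leukocyte antigen CD45 were sorted 11 weeks after tumours were initiated, and bulk RNA was sequenced from 3 libraries per genotype. The labels used here do not state age, sex, strain or what drives GFP, nor do they say whether replicates were separate animals, so p-values measure the spread between these libraries, which may be technical.

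Ligands of this family bind pairs of type I and type II receptor kinases at the cell surface. TGF-betas and activins pass the signal to SMAD2 and SMAD3, BMPs to SMAD1, SMAD5 and SMAD9, and both branches use SMAD4 to reach the nucleus. Secreted antagonists such as follistatin and chordin trap ligands before they bind, and latent TGF-beta binding proteins hold TGF-beta in the matrix until it is released. In the lung, BMP4 patterns the branching epithelium of the embryo, and TGF-beta is a classical inducer of epithelial-mesenchymal transition in tumour cells.

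Total counts ran from 29613678 to 41729299 in sgLkb1 libraries and from 26007503 to 28986526 in sgNeo libraries. Stk11 was at 23.5, 25.6 and 25.3 CPM (counts scaled to the size of the library) in sgLkb1 replicates 1, 2 and 3, against 68.3, 33.4 and 82.7 CPM in replicates 1, 2 and 3 of sgNeo. It passed the test as lower in sgLkb1 (edgeR adjusted p = 0.023, 1.49e-05 to 0.0757 over 11 alternatives). That call held in the fit without sgNeo replicate 2 and was lost in each of the other 5 fits that left out a library. Its exons overlap those of Cbarp, which is transcribed the other way. The epithelial markers Epcam, Cdh1, Krt8 and Krt18 were above 436 CPM in every library. Of 8 lung epithelial markers 1 rose, Epcam, and 4 fell, Nkx2-1, Sftpc, Sftpb and Lamp3. The sums were 15870 to 21690 CPM in sgLkb1 and 80850 to 96340 CPM in sgNeo libraries. Most of that difference was Sftpc, at 8885, 5939 and 11250 CPM in sgLkb1, against 82970, 69550 and 75280 CPM in sgNeo libraries. Cdh1, Krt8 and Krt18 did not pass but, like Epcam, were higher in each sgLkb1 library than in any sgNeo library. Markers of other cell types were detected too. The 12 fibroblast markers summed to 389.7, 519.6 and 1577 CPM in replicates 1, 2 and 3 of sgLkb1, against 438.6, 280 and 309.9 CPM in replicates 1, 2 and 3 of sgNeo. Of them 4 rose and none was at 0 in every library. Without Npnt, which was above 174 CPM in every library, the other 11 summed to 182, 261 and 1400 CPM in replicates 1, 2 and 3 of sgLkb1 and to 42.1 to 122 CPM in sgNeo libraries. The 10 endothelial markers summed to 120.3 to 247 CPM in sgLkb1 and 64.0 to 95.2 CPM in sgNeo libraries, with 3 higher, and the 8 smooth muscle and pericyte markers to 34.0 to 59.9 CPM in sgLkb1 and 12.3 to 22.8 CPM in sgNeo libraries, with 1 higher. The 7 mesothelial markers summed to 818.1 to 1286 CPM in sgLkb1 and 172.2 to 428.8 CPM in sgNeo libraries. Of them 1 rose, Msln, and the other 6 summed to 4.97, 10.8 and 93.9 CPM in replicates 1, 2 and 3 of sgLkb1 and to at most 4.37 CPM in sgNeo libraries. Of 12 leukocyte markers 1 rose and 2 fell, with sums of 57.0 to 106.3 CPM in sgLkb1 and 495.6 to 849.6 CPM in sgNeo libraries. Without Lyz1, the other 11 summed to 35.9 to 61.1 CPM in sgLkb1 and 21.5 to 34.2 CPM in sgNeo libraries, so the direction of the leukocyte sum turned on Lyz1. Npnt, Msln and Lyz1 were picked to be left out after the values were seen. Of 6 club and ciliated cell markers 1 fell, with sums of 253.4 to 678.9 CPM in sgLkb1 and 497.7 to 688.8 CPM in sgNeo libraries. In such bulk libraries a change in the number of cells of a type and a change in RNA per cell cannot be told apart.

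Of the 73 members, 53 had enough counts to be tested, and 6 of them rose and 4 fell in the sgLkb1 libraries. The 6 that rose were Fst, Inhba, Bmper, Fstl1, Chrd and Tgfbr1, and the 4 that fell were Bmp4, Bambi, Bmp2 and Inhbb. Thus 18.9% of the tested members passed, against 15.7% of all 15978 tested genes. The share that rose was 11.3%, against 7.05% of all tested genes, and the share that fell was 7.55%, against 8.6%. The median log2 fold change (sgLkb1 over sgNeo) was 0.08 over the tested members and 0.02 over all tested genes. With all libraries and these settings the family was thus called at a rate near that of other genes, and the description below turns on which members moved. The share that rose was 17.6% without a filter on low counts, against 6.03% of all genes tested in that fit. The groups did not overlap for 10 members that were higher and 9 that were lower in sgLkb1, which is 18.9% and 17.0% of the tested members, against 16.3% and 20.3% of all tested genes.

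How many members passed depended on single libraries, and so did the calls over all genes. There were 12 higher and 5 lower without sgLkb1 replicate 1, where 21.1% and 8.77% of the members tested were called, against 8.19% and 8.46% of all genes tested. Without sgLkb1 replicate 2 there were 3 higher and 1 lower (5.45% and 1.82%, against 4.23% and 5.00% of all genes), and without sgLkb1 replicate 3 there were 3 higher and 3 lower (5.26% each, against 6.01% and 7.15%). Without sgNeo replicate 1 there were 4 higher and 1 lower (7.14% and 1.79%, against 3.23% and 4.63% of all genes), without sgNeo replicate 2 there were 2 higher and 1 lower (3.57% and 1.79%, against 2.67% and 4.07%), and without sgNeo replicate 3 there were 3 higher and 3 lower (5.26% each, against 4.21% and 5.21%). Fst, Chrd and Bmp4 passed under all 11 alternatives tried, and no member that passed changed sign under any of them.

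**Figure D1:**
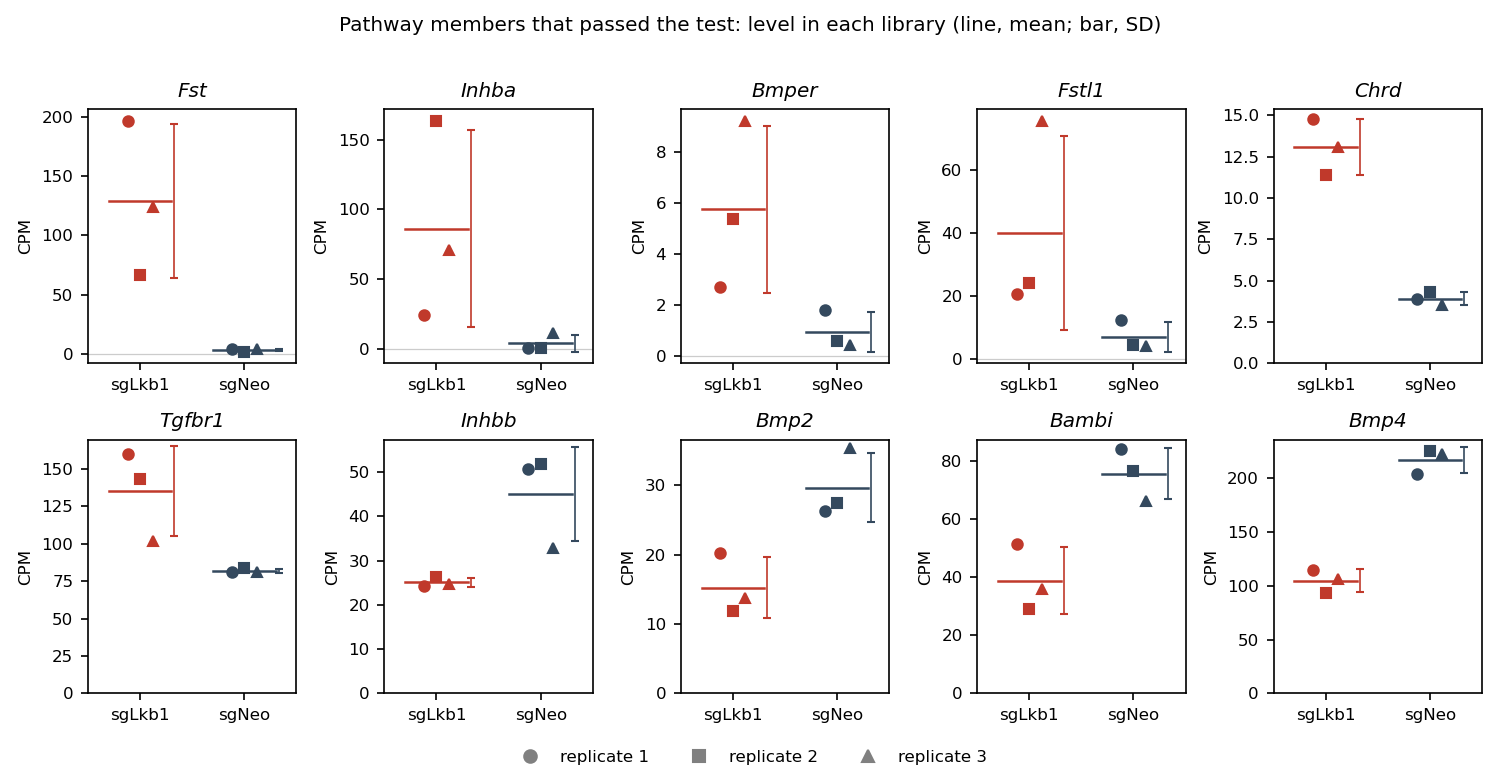
Level in CPM (y axis, from 0) of the 10 members that passed the test, in each sgLkb1 library (left, red) and each sgNeo library (right, dark blue), with marker shapes for replicates, lines for means and bars for the SD over 3 libraries. The groups do not overlap in any panel, and Inhba in sgNeo replicate 3 stands at 11.2 CPM above the other sgNeo libraries.

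Of the 6 secreted antagonists tested 4 rose, while 7.05% of all tested genes did. This small group was formed by role for the description, with Bmper in it and Fstl4 outside it, and its share was not tested against that of all genes. Of the 4, Fst and Chrd kept their call under every alternative tried. Fst encodes follistatin, which binds activins and keeps them from their receptors. It was at 197, 66.4 and 124 CPM in replicates 1, 2 and 3 of sgLkb1, against 4.13, 2.10 and 4.22 CPM in replicates 1, 2 and 3 of sgNeo. Every sgLkb1 library was far above every sgNeo library. The means were 129 ± 65.2 CPM in sgLkb1 and 3.49 ± 1.197 CPM in sgNeo (SD, n = 3 each), a 36.98-fold rise with a log2 fold change of 5.21 (standard error 0.47, edgeR adjusted p = 0.000739). Leaving out a library gave log2 fold changes from 4.79 to 5.55, and the adjusted p stayed between 1.16e-42 and 0.00575 over all 11 alternatives. Fst occupies chr13:114452290-114458951, minus strand of GRCm38, and the gene model whose exon overlaps it on the other strand held at most 1 count in any library.

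Chrd encodes chordin, which binds BMP2 and BMP4. Its level was 14.8, 11.4 and 13.1 CPM in replicates 1, 2 and 3 of sgLkb1, against 3.89, 4.29 and 3.50 CPM in replicates 1, 2 and 3 of sgNeo. All libraries of a genotype lay close together and the genotypes were well apart. The rise was 3.36-fold, with a log2 fold change of 1.75 (standard error 0.24, edgeR adjusted p = 0.00318, 5.25e-08 to 0.019 over 11 alternatives). Chrd occupies chr16:20733127-20742384, plus strand, and shares exon sequence with Thpo, the thrombopoietin gene, which runs the other way. Thpo held 526, 296 and 406 counts in replicates 1, 2 and 3 of sgLkb1, against 89, 103 and 123 counts in replicates 1, 2 and 3 of sgNeo, and Chrd held 605, 435 and 455 counts in sgLkb1 against 97, 106 and 88 counts in sgNeo libraries. Thpo passed the test as well (log2 fold change 1.35, edgeR adjusted p = 0.0184). Since no strand setting is stated, reads of this overlap cannot be assigned to either gene with certainty.

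Fstl1, a secreted follistatin-like glycoprotein reported in mouse to oppose BMP4, and Bmper, a chordin-like modulator of BMP activity that can block or promote it, rose too. Fstl1 was at 20.4, 23.9 and 75.7 CPM in replicates 1, 2 and 3 of sgLkb1, against 12.4, 4.37 and 4.06 CPM in replicates 1, 2 and 3 of sgNeo. Its log2 fold change was 2.53 (standard error 0.62, edgeR adjusted p = 0.0294, 2.97e-09 to 0.114 over 11 alternatives), and 1.67 without sgLkb1 replicate 3 and 3.24 without sgNeo replicate 1. Bmper had 2.69, 5.35 and 9.21 CPM in replicates 1, 2 and 3 of sgLkb1, against 1.80, 0.57 and 0.40 CPM in replicates 1, 2 and 3 of sgNeo. That is a log2 fold change of 2.63 (standard error 0.69, edgeR adjusted p = 0.0368, 0.00013 to 0.133 over 11 alternatives), and 3.56 without sgNeo replicate 1. Both genes were highest in sgLkb1 replicate 3, the library with the highest fibroblast marker sum, and their order over the sgNeo libraries put replicate 1 on top, as did the fibroblast sum. The smooth muscle and pericyte sum, the mesothelial sum without Msln and the lung epithelial sum peaked in these libraries too, so the match was not particular to fibroblast markers. The endothelial and the club and ciliated sums peaked in sgLkb1 replicate 3 but in sgNeo replicate 2. The part of RNA from fibroblasts or other cells in these values was not tested. Fstl1 lost its call without sgLkb1 replicate 3, sgNeo replicate 2 or sgNeo replicate 3, and Bmper lost it without those 3 libraries, without sgLkb1 replicate 2 and with the replicate number as a block.

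The other antagonists were low or did not pass. Grem1, gremlin, which binds BMPs, was at 1.35, 1.42 and 1.49 CPM in sgLkb1 libraries, against 0.96, 0.53 and 0.12 CPM in sgNeo libraries, without overlap but with an edgeR adjusted p of 0.224. Fstl3, a follistatin-like activin binder, was at 5.80, 16.1 and 15.7 CPM in sgLkb1, against 11.5, 7.94 and 11.7 CPM in sgNeo libraries, and the groups overlapped. Nog, Chrdl1 and Chrdl2 had too few counts to be tested, and Nog, noggin, held no count in any sgNeo library and at most 6 counts in a sgLkb1 library.

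Among the activin subunits, Inhba rose and Inhbb fell. Inhba encodes the subunit of activin A, the main ligand that follistatin neutralises. It was at 24.5, 163 and 70.7 CPM in replicates 1, 2 and 3 of sgLkb1, against 0.60, 0.53 and 11.2 CPM in replicates 1, 2 and 3 of sgNeo. The lowest sgLkb1 library was above the highest sgNeo library, and sgNeo replicate 3 stood far above the other sgNeo libraries. The log2 fold change was 4.39 (standard error 1.19, edgeR adjusted p = 0.0409, 4.51e-11 to 0.115 over 11 alternatives), and it ranged from 3.57 without sgLkb1 replicate 2 to 7.24 without sgNeo replicate 3. The call was lost without sgLkb1 replicate 2 or 3 and without sgNeo replicate 1 or 2. Inhba occupies chr13:16011851-16031621, plus strand. Within the sgLkb1 group, the library with the highest Inhba, replicate 2, had the lowest Fst, and the library with the lowest Inhba, replicate 1, had the highest Fst. The sgNeo group did not repeat this order, as both genes were highest in replicate 3 and lowest in replicate 2. A relation between Inhba and Fst was not tested.

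Inhbb, the subunit of activin B, was at 24.3, 26.3 and 24.6 CPM in replicates 1, 2 and 3 of sgLkb1, against 50.6, 51.8 and 32.8 CPM in replicates 1, 2 and 3 of sgNeo. The sgLkb1 libraries hardly differed among themselves and lay below all sgNeo libraries. The log2 fold change was -0.85 (standard error 0.20, edgeR adjusted p = 0.0259, 0.00516 to 0.111 over 11 alternatives), and the call was lost without sgLkb1 replicate 2 or 3 and without sgNeo replicate 1 or 2. Inha, the inhibin alpha subunit, which pairs with either beta subunit to form an activin antagonist, averaged 1.73 ± 1.53 CPM in sgLkb1 and 0.59 ± 0.37 CPM in sgNeo libraries and did not pass (edgeR adjusted p = 0.233).

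Of the 8 BMP ligands tested, Bmp4 and Bmp2 fell and none rose, while 8.6% of all tested genes fell and 7.05% rose. Bmp4, the BMP of lung branching, was at 114, 93.3 and 107 CPM in replicates 1, 2 and 3 of sgLkb1, against 204, 226 and 223 CPM in replicates 1, 2 and 3 of sgNeo. The libraries of each genotype lay within a narrow band and the bands were well apart. The fall was 2.07-fold, with a log2 fold change of -1.05 (standard error 0.15, edgeR adjusted p = 0.00347, 7.46e-06 to 0.0253 over 11 alternatives). Bmp4 occupies chr14:46383520-46390669, minus strand, and the gene model overlapping it there, Gm15217, held at most 51 counts in any library. Bmp2 was at 20.2, 11.8 and 13.7 CPM in replicates 1, 2 and 3 of sgLkb1, against 26.3, 27.4 and 35.4 CPM in replicates 1, 2 and 3 of sgNeo, again without overlap. Its log2 fold change of -0.96 (standard error 0.24, edgeR adjusted p = 0.0321, 0.00431 to 0.112 over 11 alternatives) kept its call only without sgLkb1 replicate 1 among the fits that left out a library.

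The remaining BMP ligands did not pass with all libraries and the filter. Bmp3 averaged 38.6 ± 9.96 CPM in sgLkb1 and 51.7 ± 9.86 CPM in sgNeo libraries, and Bmp5 33.8 ± 14.6 CPM in sgLkb1 and 48.1 ± 6.41 CPM in sgNeo libraries. Bmp7 was at 0.34, 8.004 and 4.05 CPM in replicates 1, 2 and 3 of sgLkb1, against 0, 0.89 and 1.75 CPM in replicates 1, 2 and 3 of sgNeo, so the groups overlapped. Its log2 fold change was 2.22, ranging from 1.35 to 3.20 when a library was left out, and it passed without a filter on low counts (edgeR adjusted p = 0.0229, up to 0.60 over 11 alternatives). Bmp6 averaged 4.77 ± 2.50 CPM in sgLkb1 and 5.66 ± 0.79 CPM in sgNeo libraries. Bmp8a and Bmp8b, near-identical copies that share reads, were below 5 CPM in every library. Of 10 GDF ligands 9 were too low to test. The tested member, Gdf15, a stress-induced cytokine, was at 23.5, 17.9 and 18.1 CPM in sgLkb1, against 20.7, 32.7 and 31.8 CPM in sgNeo libraries, with an edgeR adjusted p of 0.164.

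Transcripts of the TGF-betas themselves were not among those that passed. Tgfb1 was at 1.64, 2.49 and 1.18 CPM in replicates 1, 2 and 3 of sgLkb1, against 0.76, 1.34 and 2.23 CPM in replicates 1, 2 and 3 of sgNeo. Tgfb2 was at 2.67, 8.61 and 7.17 CPM in sgLkb1, against 3.89, 3.60 and 4.02 CPM in sgNeo libraries, and Tgfb3 at 11.4, 16.5 and 29.2 CPM in sgLkb1, against 29.2, 22.6 and 26.9 CPM in sgNeo libraries. The genotypes overlapped for all 3 ligands, with 95% intervals of the log2 fold change from -0.95 to 1.54 for Tgfb1, -0.33 to 1.68 for Tgfb2 and -1.21 to 0.28 for Tgfb3. Without sgLkb1 replicate 3, Tgfb3 passed as lower (log2 fold change -0.93, edgeR adjusted p = 0.0435, up to 0.716 over 11 alternatives), and without sgLkb1 replicate 1, Tgfb2 passed as higher (log2 fold change 1.05, edgeR adjusted p = 0.0426, up to 0.652 over 11 alternatives).

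The latent TGF-beta binding proteins varied widely within the sgLkb1 group. Ltbp1 was at 6.70, 41.5 and 34.4 CPM in replicates 1, 2 and 3 of sgLkb1, against 3.01, 6.28 and 10.8 CPM in replicates 1, 2 and 3 of sgNeo, and Ltbp4 at 7.07, 55.7 and 29.3 CPM in sgLkb1, against 10.5, 9.84 and 14.4 CPM in sgNeo libraries. In both genes sgLkb1 replicate 1 lay within or below the sgNeo range and the other sgLkb1 libraries above it. Neither passed (edgeR adjusted p = 0.0784 and 0.16). Without sgLkb1 replicate 1 both did, with log2 fold changes of 2.51 for Ltbp1 (edgeR adjusted p = 0.0115, 5.11e-06 to 0.211 over 11 alternatives) and 1.87 for Ltbp4 (edgeR adjusted p = 0.00655, 0.000544 to 0.475 over 11 alternatives). Both also passed without a filter on low counts, and Ltbp1 passed with the replicate number as a block (log2 fold change 1.86, edgeR adjusted p = 0.00972). Ltbp3, which averaged 99.8 ± 34.4 CPM in sgLkb1 and 120.2 ± 20.8 CPM in sgNeo libraries, and Ltbp2, at 11.2 ± 5.40 CPM in sgLkb1 and 6.53 ± 3.55 CPM in sgNeo libraries, did not pass.

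**Figure D2:**
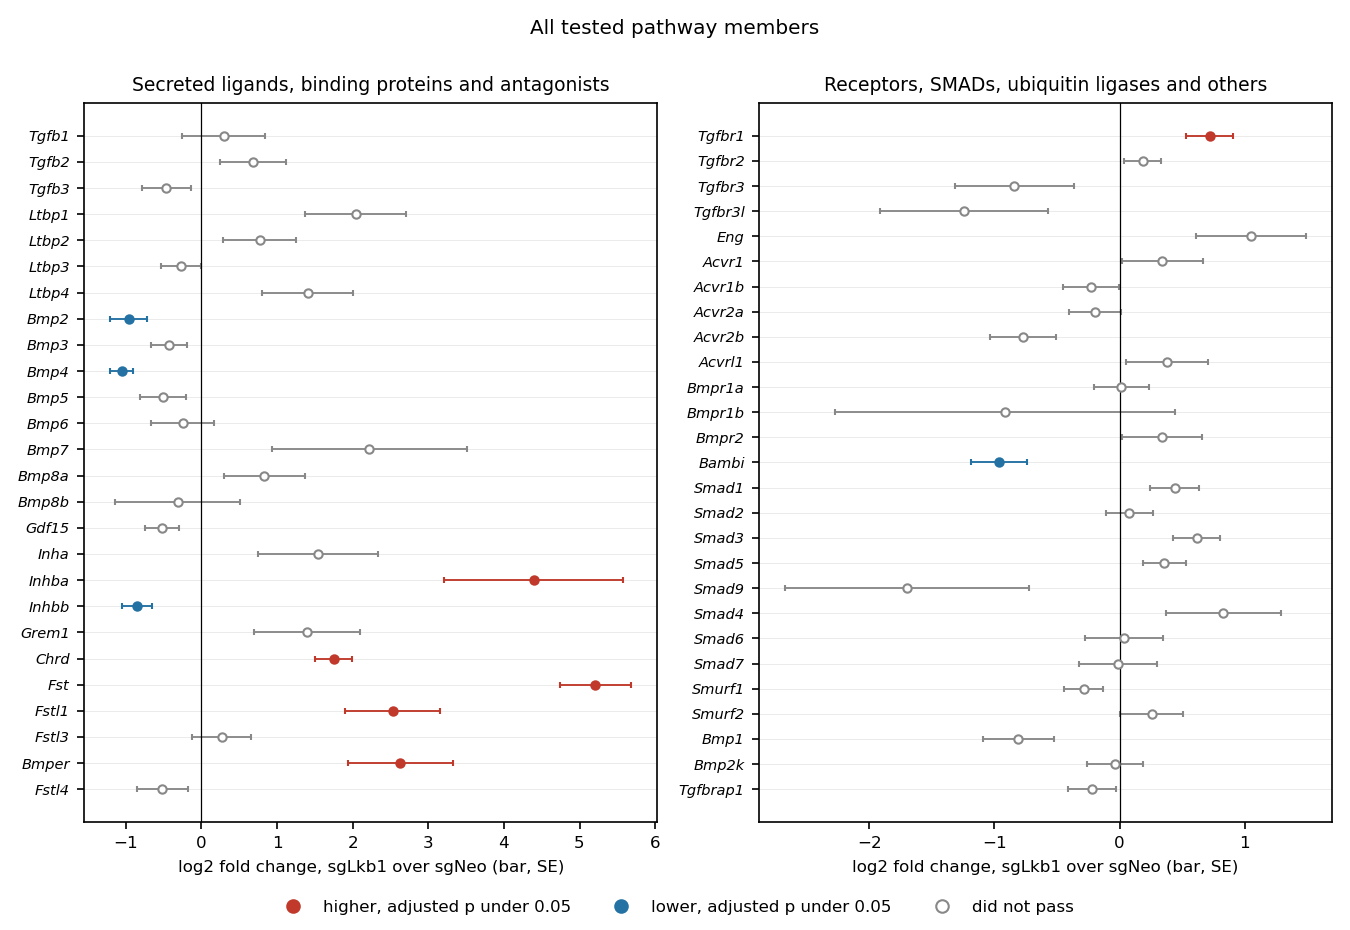
Log2 fold change of sgLkb1 over sgNeo (x axis, bars are the SE, scales differ between the panels) for the 53 tested members, with secreted proteins on the left and receptors and intracellular members on the right; filled points passed the test. The points that rose sit mostly among the secreted proteins, from Chrd at 1.75 to Fst at 5.21, while among receptors and SMADs Tgfbr1 and Bambi passed.

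The start regions of Inhba, Chrd and Bmp4 are shown as examples of an activin subunit that rose, a BMP antagonist that rose and a BMP ligand that fell. Each window, from RefSeq on GRCm38.p6, holds 250 bases before and 50 bases after the annotated start, and 53 of the 73 members had a usable entry. Capitals mark matches, on either strand, to any of 6 motifs searched: the cyclic AMP response element TGACGTCA, its half-site TGACG (part of the whole element), the AP-1 site TGANTCA, the SMAD palindrome GTCTAGAC, the GC-rich SMAD box GGCGCC and the TATA box TATAAA.
Inhba, chr13:16011601-16011900, plus strand: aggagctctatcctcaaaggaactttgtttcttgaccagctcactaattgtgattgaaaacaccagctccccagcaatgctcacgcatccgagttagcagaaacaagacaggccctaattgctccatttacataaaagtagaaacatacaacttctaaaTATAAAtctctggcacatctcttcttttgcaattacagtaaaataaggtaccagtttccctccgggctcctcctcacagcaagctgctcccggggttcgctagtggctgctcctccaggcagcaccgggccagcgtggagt
Chrd, chr16:20732877-20733176, plus strand: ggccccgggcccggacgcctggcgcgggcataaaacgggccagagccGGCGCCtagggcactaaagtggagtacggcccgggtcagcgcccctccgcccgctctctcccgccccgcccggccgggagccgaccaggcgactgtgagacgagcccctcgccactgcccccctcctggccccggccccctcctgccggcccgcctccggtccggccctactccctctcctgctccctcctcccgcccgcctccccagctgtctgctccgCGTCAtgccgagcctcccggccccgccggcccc
Bmp4, chr14:46390620-46390919, minus strand: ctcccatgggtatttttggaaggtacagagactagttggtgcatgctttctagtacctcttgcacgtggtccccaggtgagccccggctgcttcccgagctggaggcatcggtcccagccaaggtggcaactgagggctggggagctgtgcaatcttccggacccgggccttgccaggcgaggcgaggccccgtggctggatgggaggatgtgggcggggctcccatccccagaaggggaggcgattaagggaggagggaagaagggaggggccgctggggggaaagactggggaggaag

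The Inhba window held the TATA box letters 91 bases before the start, a match found in 13.6% of 32851 promoter windows of the same length. The Chrd window held the half-site 18 bases after the start, found in 20.8% of windows, and the GC-rich SMAD box 203 bases before it, found in 11.9%. The whole cyclic AMP response element, in 1.79% of windows, the AP-1 site, in 7.81%, and the SMAD palindrome, in 0.213%, were in none of the 3 windows, and the Bmp4 window matched none of the 6 motifs. GC content was 47.7% for Inhba, 78.3% for Chrd and 64.0% for Bmp4, with a median of 52.7% over all windows. These matches describe letters in short windows and say nothing about binding.

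Among the receptors, Tgfbr1 rose and the pseudoreceptor Bambi fell. Tgfbr1, the type I receptor kinase for TGF-beta, was at 160, 143 and 102 CPM in replicates 1, 2 and 3 of sgLkb1, against 81.1, 83.5 and 81.2 CPM in replicates 1, 2 and 3 of sgNeo. All sgNeo libraries were nearly equal and all sgLkb1 libraries were above them. The rise was 1.65-fold, with a log2 fold change of 0.72 (standard error 0.19, edgeR adjusted p = 0.0358, 0.00604 to 0.127 over 11 alternatives), and the call was lost without sgLkb1 replicate 2 or any sgNeo library. Its partner Tgfbr2, the type II receptor, was at 195, 154 and 179 CPM in sgLkb1, against 155, 153 and 157 CPM in sgNeo libraries, and did not pass (log2 fold change 0.18, 95% interval -0.16 to 0.53). Bambi, a membrane protein that resembles a type I receptor but lacks the kinase and blocks signalling, was at 51.4, 29.1 and 36.0 CPM in replicates 1, 2 and 3 of sgLkb1, against 84.1, 76.4 and 66.4 CPM in replicates 1, 2 and 3 of sgNeo. The groups did not overlap, with a log2 fold change of -0.96 (standard error 0.22, edgeR adjusted p = 0.024, 0.000733 to 0.0865 over 11 alternatives). That call was lost without sgLkb1 replicate 2 or 3 and without sgNeo replicate 1 or 2.

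None of the 8 tested activin and BMP receptors passed (0 of 8 by edgeR at the adjusted threshold, 1 of 8 at an unadjusted p under 0.05, and 0 of 8 by DESeq2). Bmpr1a, a type I BMP receptor, was at 130.3, 103 and 71.4 CPM in replicates 1, 2 and 3 of sgLkb1, against 102, 99.7 and 100.4 CPM in replicates 1, 2 and 3 of sgNeo, and the 95% interval of its log2 fold change ran from -0.48 to 0.51. Bmpr2, the type II BMP receptor, averaged 37.3 ± 16.0 CPM in sgLkb1 and 29.5 ± 8.36 CPM in sgNeo libraries. The type II activin receptor Acvr2b was the member with the unadjusted p under 0.05. It was at 4.06, 4.41 and 4.28 CPM in sgLkb1, against 7.22, 8.10 and 6.45 CPM in sgNeo libraries, without overlap (log2 fold change -0.77, standard error 0.26, edgeR adjusted p = 0.0862). Acvr2a, its close relative, averaged 30.7 ± 8.27 CPM in sgLkb1 and 35.2 ± 3.22 CPM in sgNeo libraries, Acvr1 12.2 ± 4.74 CPM in sgLkb1 and 9.62 ± 2.36 CPM in sgNeo libraries, and Acvr1b, the type I receptor for activin, 7.86 ± 0.50 CPM in sgLkb1 and 9.20 ± 0.81 CPM in sgNeo libraries. Bmpr1b was below 0.6 CPM in every library, and Acvr1c was too low to test.

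The endothelial members did not pass with all libraries by edgeR. Eng, endoglin, a co-receptor of endothelial cells, was at 7.58, 14.0 and 27.9 CPM in replicates 1, 2 and 3 of sgLkb1, against 9.67, 7.82 and 6.45 CPM in replicates 1, 2 and 3 of sgNeo (edgeR adjusted p = 0.151), and Acvrl1, an endothelial type I receptor, averaged 12.5 ± 3.75 CPM in sgLkb1 and 9.60 ± 3.36 CPM in sgNeo libraries. Both were highest in sgLkb1 replicate 3, where the endothelial markers also had their highest sum of 247 CPM, and the part of endothelial RNA was not tested. Eng passed by DESeq2 (adjusted p = 0.0466), without a filter on low counts and without sgLkb1 replicate 1 (log2 fold change 1.42, edgeR adjusted p = 0.0307, 0.0116 to 0.453 over 11 alternatives). Tgfbr3, betaglycan, a co-receptor that presents TGF-beta and inhibin, was at 2.57, 2.60 and 7.29 CPM in replicates 1, 2 and 3 of sgLkb1, against 9.19, 7.98 and 5.10 CPM in replicates 1, 2 and 3 of sgNeo. It did not pass with all libraries, and passed as lower without sgLkb1 replicate 3 (log2 fold change -1.53, edgeR adjusted p = 0.0413, up to 0.552 over 11 alternatives).

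No SMAD passed the test with all libraries and the filter, and Smad3 came closest. None of the 8 was called by edgeR, 1 had an unadjusted p under 0.05, and DESeq2 called 1, in each case Smad3. Smad3, which carries TGF-beta and activin signals, was at 74.4, 103 and 84.8 CPM in replicates 1, 2 and 3 of sgLkb1, against 47.0, 60.0 and 64.3 CPM in replicates 1, 2 and 3 of sgNeo, without overlap. Its log2 fold change was 0.61 (standard error 0.18, edgeR adjusted p = 0.0587, 0.0219 to 0.201 over 11 alternatives), and it passed with RLE scaling, without a filter on low counts, by DESeq2, with the replicate number as a block and without sgLkb1 replicate 1. Smad2, its partner in the same branch, was at 94.6, 69.3 and 60.2 CPM in sgLkb1, against 73.4, 69.2 and 69.8 CPM in sgNeo libraries, with a 95% interval of the log2 fold change from -0.35 to 0.51.

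In the BMP branch Smad1 averaged 58.2 ± 12.6 CPM in sgLkb1 and 42.8 ± 5.59 CPM in sgNeo libraries, and Smad5 48.1 ± 8.57 CPM in sgLkb1 and 37.6 ± 3.52 CPM in sgNeo libraries, and Smad9 was at most 1.203 CPM in any library. Smad1 passed without sgLkb1 replicate 1 (log2 fold change 0.59, edgeR adjusted p = 0.0426, up to 0.404 over 11 alternatives). Smad4, the SMAD shared by both branches, differed widely between libraries of a genotype, at 73.4, 88.8 and 27.9 CPM in replicates 1, 2 and 3 of sgLkb1, against 51.1, 36.8 and 19.2 CPM in replicates 1, 2 and 3 of sgNeo. The genotypes overlapped and the edgeR adjusted p was 0.268 (0.0149 to 0.54 over 11 alternatives). Smad4 passed as higher with the replicate number as a block (adjusted p = 0.0334) and without a filter on low counts. The inhibitory SMADs, which signalling through the pathway induces as feedback, stood at similar means in both groups, with Smad6 at 9.57 ± 3.19 CPM in sgLkb1 and 9.35 ± 1.81 CPM in sgNeo and Smad7 at 10.5 ± 4.41 CPM in sgLkb1 and 10.7 ± 0.82 CPM in sgNeo libraries (SD, n = 3). Their 95% intervals of the log2 fold change ran from -0.68 to 0.75 and from -0.74 to 0.71, so shifts of up to about that size lie within the intervals. Smurf1, a ubiquitin ligase that marks SMADs and receptors for degradation, was at 99.5, 129 and 125 CPM in sgLkb1, against 142, 139 and 151 CPM in sgNeo libraries, without overlap, and did not pass (edgeR adjusted p = 0.255). Smurf2 averaged 35.5 ± 11.98 CPM in sgLkb1 and 29.7 ± 4.93 CPM in sgNeo libraries.

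The names Bmp1, Bmp2k and Tgfbrap1 match the family without belonging to its core. Bmp1 is a metalloprotease that processes procollagen and cleaves chordin, Bmp2k is a kinase and Tgfbrap1 a receptor-associated protein. Bmp1 was at 44.6, 97.7 and 95.3 CPM in replicates 1, 2 and 3 of sgLkb1, against 134, 147 and 136 CPM in replicates 1, 2 and 3 of sgNeo, without overlap, and had an edgeR adjusted p of 0.0919 (0.00944 to 0.227 over 11 alternatives). It passed as lower with the replicate number as a block, by DESeq2, without a filter on low counts and without sgLkb1 replicate 1. Bmp2k, at 12.8, 9.71 and 13.0 CPM in sgLkb1 against 14.0, 10.7 and 11.7 CPM in sgNeo libraries, and Tgfbrap1, at 12.2, 13.9 and 15.7 CPM in sgLkb1 against 14.6, 17.3 and 16.9 CPM in sgNeo libraries, overlapped and did not pass. Fstl4, a follistatin-like protein without a settled antagonist role, was at 8.05, 3.86 and 6.31 CPM in sgLkb1, against 6.70, 9.88 and 9.48 CPM in sgNeo libraries, also with overlap. Tgfbr3l, a relative of betaglycan, was below 1.6 CPM in every library, lower in each sgLkb1 library than in any sgNeo library, and did not pass. The 20 members that were not tested included Bmp10, Bmp15, 9 GDFs, Inhbc, Inhbe, Nodal, Acvr1c, Nog, Chrdl1, Chrdl2 and Fstl5. Of them 5 had no count in any library and no library held more than 2.27 CPM of any of them.

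To compare members with each other, CPM was divided by the kilobases of merged exons of each gene in GENCODE M21. On this scale Bmp4 was the most abundant member in both genotypes, at 46.7 ± 4.78 CPM per kb in sgLkb1 and 96.7 ± 5.29 CPM per kb in sgNeo libraries. Fst ranked second in sgLkb1, at 28.1 ± 14.2 CPM per kb, and stood at rank 39 of 73 in sgNeo, at 0.76 ± 0.26 CPM per kb. Inhba was at rank 9 in sgLkb1, at 13.5 ± 11.1 CPM per kb, and at rank 41 in sgNeo, at 0.64 ± 0.96 CPM per kb. The means of Tgfbr2, Tgfbr1, Smurf1, Smad4, Bmpr1a and Smad3 in sgLkb1, from 21.5 to 15.8 CPM per kb, lay within 1 SD of that of Fst, so the rank of Fst among them is uncertain. Chrd stayed far below Fst, at 2.09 ± 0.27 CPM per kb in sgLkb1 and 0.62 ± 0.063 CPM per kb in sgNeo libraries.

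**Figure D3:**
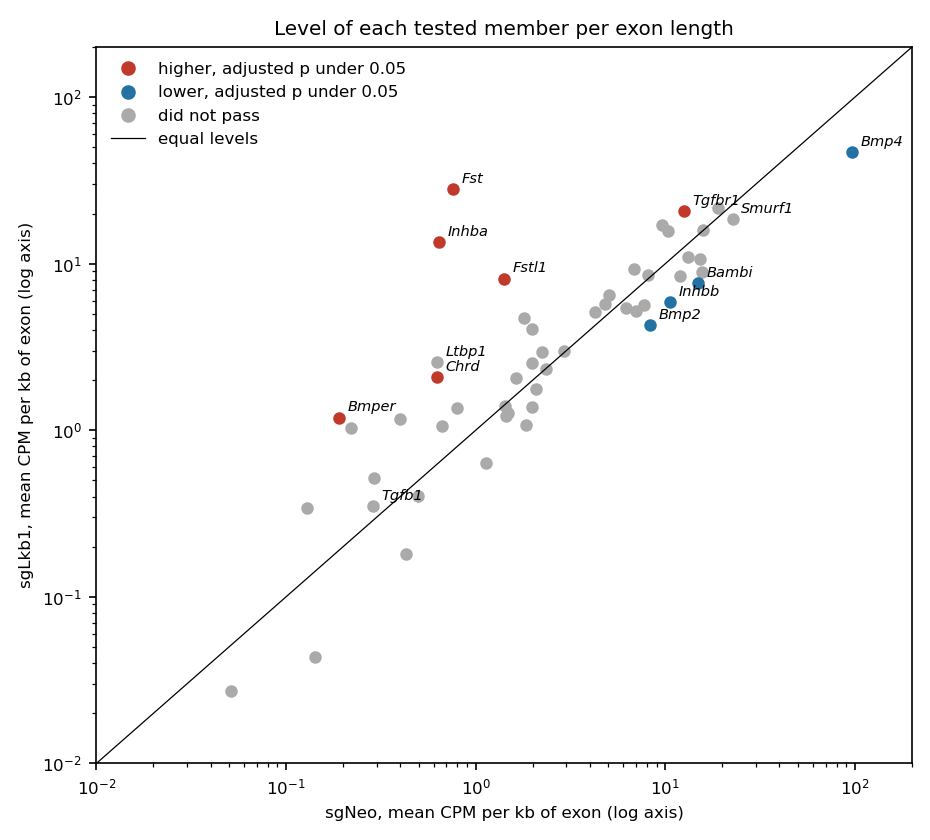
Mean level of each tested member in CPM per kb of merged exon, sgLkb1 on the y axis against sgNeo on the x axis, both log axes, with the diagonal marking equal levels. Fst and Inhba stand far above the diagonal at 28.1 and 13.5 CPM per kb in sgLkb1, and Bmp4 is the most abundant member in both genotypes.

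Members spread more among sgLkb1 than among sgNeo libraries. The median coefficient of variation over the 53 tested members was 34.7% in sgLkb1 and 19.3% in sgNeo libraries. Of these members 26 had their highest sgLkb1 level in replicate 2, among them Inhba, all 4 Ltbp genes, Tgfb1, Tgfb2, Bmp7 and 6 of the 8 SMADs. Another 17 were highest in replicate 1, among them Fst, Chrd, Tgfbr1, Tgfbr2, Bmp2, Bmp4 and Bambi. The other 10 were highest in replicate 3, among them Fstl1, Bmper, Eng, Acvrl1 and Tgfb3. Over all tested genes, Spearman correlations between libraries ran from 0.961 to 0.976 within sgLkb1 and from 0.972 to 0.982 within sgNeo. Whether the wider spread is particular to the members was not tested.

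Further pathway genes whose names the rule does not take in included 8 that passed. Of 46 tested, 5 rose (10.9%, against 7.05% of all tested genes) and 3 fell (6.52%, against 8.6%), with a median log2 fold change of 0.15. Those that rose were Nbl1, a secreted BMP antagonist of the DAN family, Furin, a protease that cleaves the precursors of these ligands, Htra1, a secreted protease reported to inhibit the family, Fbn1, a fibrillin that anchors latent complexes, and Tgif1, a SMAD corepressor. Fbn1 was at 6.75, 8.06 and 24.1 CPM in replicates 1, 2 and 3 of sgLkb1, against 3.25, 1.01 and 0.56 CPM in replicates 1, 2 and 3 of sgNeo (log2 fold change 3.01, standard error 0.74, edgeR adjusted p = 0.03). It was highest in sgLkb1 replicate 3 and, among sgNeo libraries, in replicate 1, as was the fibroblast marker sum. The smooth muscle and pericyte sum and the mesothelial sum without Msln peaked in the same libraries. The part of RNA from such cells in Fbn1 was not tested. Nbl1 was at 138, 220 and 192 CPM in replicates 1, 2 and 3 of sgLkb1, against 63.4, 70.0 and 79.0 CPM in replicates 1, 2 and 3 of sgNeo (log2 fold change 1.37, standard error 0.20, edgeR adjusted p = 0.00403). Furin was at 139, 138 and 114 CPM in sgLkb1, against 79.6, 67.7 and 58.8 CPM in sgNeo libraries (log2 fold change 0.93, standard error 0.17, edgeR adjusted p = 0.0094, up to 0.0568 without sgNeo replicate 2). Neither overlapped between the genotypes. The 3 that fell were Amhr2, the type II receptor for anti-Mullerian hormone, Nedd4l, a ubiquitin ligase that acts on SMADs, and Thbs1, a thrombospondin that can activate latent TGF-beta. Amhr2 was at 2.25, 1.86 and 2.29 CPM in sgLkb1, against 10.8, 7.61 and 8.32 CPM in sgNeo libraries (log2 fold change -2.06, standard error 0.30, edgeR adjusted p = 0.00364), and Nedd4l at 58.8, 62.7 and 54.1 CPM in sgLkb1, against 97.8, 102 and 95.6 CPM in sgNeo libraries (log2 fold change -0.75, standard error 0.14, edgeR adjusted p = 0.00898, up to 0.0548 without sgNeo replicate 2). Leaving out a library changed the number that rose to 8 without sgLkb1 replicate 1, 3 without sgLkb1 replicate 3 or sgNeo replicate 1, 2 without sgNeo replicate 3 and 1 without sgNeo replicate 2, and the number that fell to 1 without sgNeo replicate 2 and to 2 in each of the other 5 fits that left out a library. By DESeq2 and without a filter on low counts 11 rose, while 9.49% and 6.03% of all genes tested in those fits did. The ligand Lefty1, an inhibitor of Nodal, was at 1.61, 1.57 and 1.61 CPM in sgLkb1, against 1.203, 1.25 and 1.95 CPM in sgNeo libraries, and Lefty2 had no counts.

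Of 19 genes known to be induced by TGF-beta, 8 rose and 1 fell, which is 42.1% and 5.26%, against 7.05% and 8.6% of all tested genes. This list, like the other lists here, was chosen with earlier results of these data known. The median log2 fold change was 0.79. The members that rose were Hmga2, Fn1, Col1a1, Snai1, Spsb1, Pmepa1, Ldlrad4 and Tgfbi. Pmepa1, a feedback inhibitor of SMAD signalling, was at 102, 131 and 83.8 CPM in replicates 1, 2 and 3 of sgLkb1, against 47.0, 34.7 and 40.0 CPM in replicates 1, 2 and 3 of sgNeo. Its log2 fold change was 1.38 (standard error 0.21, edgeR adjusted p = 0.00416, 7.42e-08 to 0.0301 over 11 alternatives). Hmga2, a chromatin protein of embryonic tissue, was at 16.5, 35.1 and 16.4 CPM in sgLkb1, against 2.05, 1.54 and 2.59 CPM in sgNeo libraries. Skil, a feedback inhibitor of SMADs that the pathway induces, was at 108, 121 and 81.7 CPM in sgLkb1, against 72.8, 70.7 and 71.4 CPM in sgNeo libraries. The groups did not overlap, but it did not pass (edgeR adjusted p = 0.0754, 0.031 to 0.227 over 11 alternatives).

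Adam19, a membrane metalloprotease, was the member of that list that fell, at 30.7, 14.4 and 19.4 CPM in sgLkb1, against 85.3, 69.4 and 58.7 CPM in sgNeo libraries (log2 fold change -1.73, standard error 0.29, edgeR adjusted p = 0.00653). Fn1 and Col1a1, matrix genes that fibroblasts also express, were part of the count. Col1a1 was at 32.8, 75.3 and 245.8 CPM in replicates 1, 2 and 3 of sgLkb1, against 27.1, 7.73 and 10.9 CPM in replicates 1, 2 and 3 of sgNeo. Col1a1 is itself 1 of the 12 fibroblast markers, and the part of fibroblast RNA in it was not tested. Fn1 was at 323, 1545 and 944 CPM in replicates 1, 2 and 3 of sgLkb1, against 135, 111 and 171 CPM in replicates 1, 2 and 3 of sgNeo (log2 fold change 2.75, standard error 0.51, edgeR adjusted p = 0.00987, up to 0.0541 without sgNeo replicate 2). The number that rose was 5 without sgLkb1 replicate 2 or sgNeo replicate 1, 4 without sgLkb1 replicate 3, 3 without sgNeo replicate 3 and 2 without sgNeo replicate 2.

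Of 7 BMP-induced genes tested, 1 rose, Runx2, and 1 fell, Id2, each 14.3%, against 7.05% and 8.6% of all tested genes, with a median log2 fold change of 0.80. Id2, an inhibitor of differentiation and a direct BMP target in many cells, was at 141, 222 and 132 CPM in replicates 1, 2 and 3 of sgLkb1, against 429, 366 and 322 CPM in replicates 1, 2 and 3 of sgNeo. The log2 fold change was -1.18 (standard error 0.24, edgeR adjusted p = 0.0138), and it missed the threshold once sgNeo replicate 1 or sgNeo replicate 2 was dropped, with adjusted p-values reaching 0.0549. Id1 was at 56.7, 92.8 and 57.0 CPM in sgLkb1, against 62.2, 55.6 and 80.1 CPM in sgNeo libraries, with overlap, and Id3 was at 81.8, 188 and 132 CPM in sgLkb1, against 81.3, 62.8 and 85.7 CPM in sgNeo libraries, which did not pass (edgeR adjusted p = 0.10, 0.00432 to 0.293 over 11 alternatives). Id3 passed as higher without sgLkb1 replicate 1, by DESeq2 and without a filter on low counts. Runx2, a transcription factor of bone, was at 15.7, 18.3 and 11.5 CPM in sgLkb1, against 2.93, 4.70 and 4.54 CPM in sgNeo libraries (log2 fold change 1.90, standard error 0.30, edgeR adjusted p = 0.00494), and an antisense gene overlaps it. Without sgLkb1 replicate 1 the number that rose was 2, and without sgNeo replicate 1 or 2 the number that fell was 0.

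**Figure D4:**
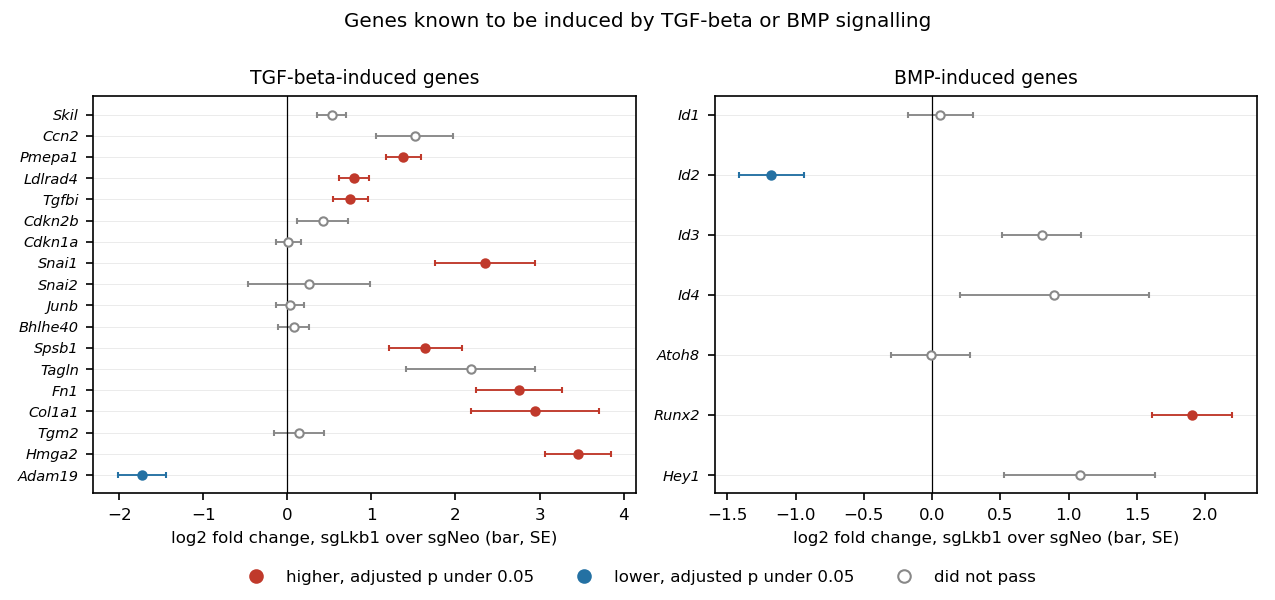
Log2 fold change of sgLkb1 over sgNeo (x axis, bars are the SE, scales differ) for 18 of the 19 tested genes known to be induced by TGF-beta (left; 1 that did not pass is not reported here) and 7 tested genes known to be induced by BMPs (right); filled points passed the test. On the left 8 points rose and Adam19 fell, on the right Runx2 rose and Id2 fell.

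**Figure D5:**
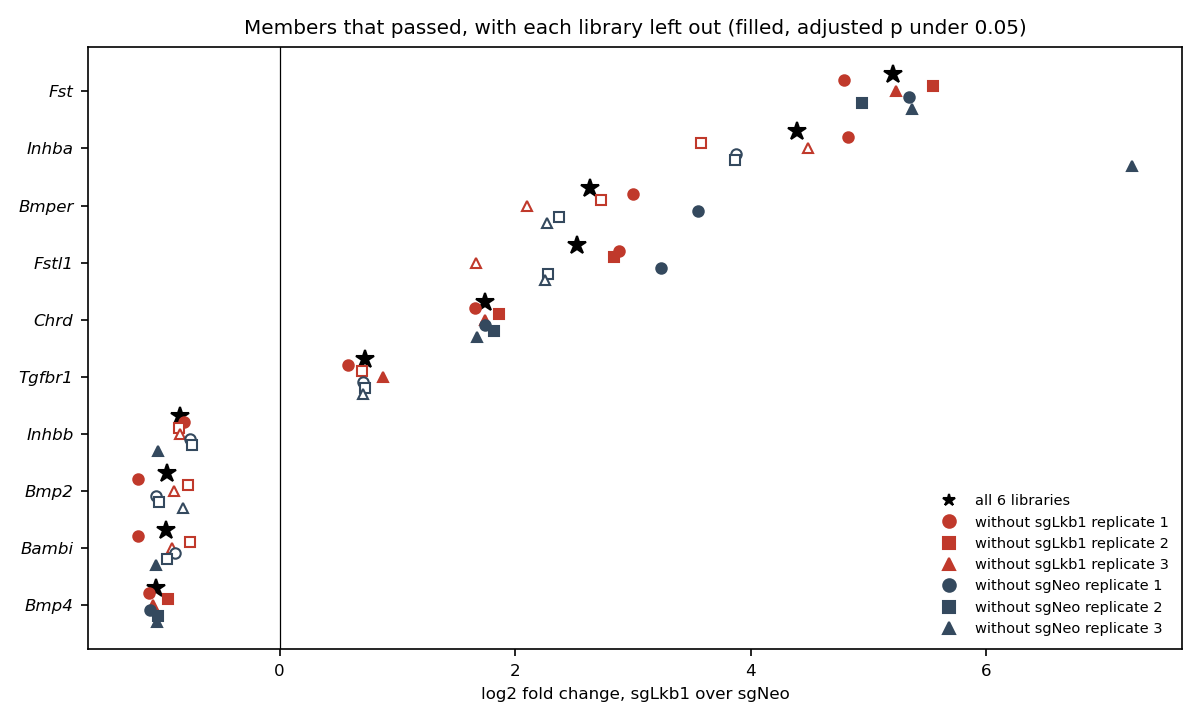
Log2 fold change of the 10 members that passed (x axis) with all 6 libraries (star) and with each library left out (shapes for replicates, red where a sgLkb1 and dark blue where a sgNeo library was left out); filled points are past the threshold. Fst, Chrd and Bmp4 are filled throughout, and Inhba moves from 3.57 to 7.24.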

How the data were processed

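RNA was sequenced from cells sorted from tumours, 3 libraries per genotype. The authors deposited expected counts per gene for each library, with 10.4% to 11.9% of values not whole. FastQC, STAR, RSEM and DESeq2 with build GRCm38 are named, without versions, per the submitters' processing notes. Neither annotation release nor strand setting is given in the sources used here. RSEM shares reads between similar genes, so close copies are uncertain. Counts were rounded, filtered with filterByExpr (15978 of 55487 genes kept) and scaled by TMM in edgeR 4.0.16 (R 4.3.3). CPM uses the scaled library sizes. A count of 3 is 0.0734 to 0.0861 CPM in sgLkb1 and 0.119 to 0.121 CPM in sgNeo libraries. The test of sgLkb1 against sgNeo was the quasi-likelihood one of edgeR, with no covariate, and p-values were adjusted over all tested genes by Benjamini-Hochberg, with a threshold of 0.05. Standard errors are the size of the log2 fold change over the root of F. Gene coordinates, exon overlaps and lengths are from GENCODE M21, which held all 73 members. Of genes changed 2-fold in simulated data with these means and library sizes (15978 genes, 50 per fold), 24% were recovered, and 98% of those changed 4-fold. The changed genes were drawn only from those above a minimum mean level, so these shares do not cover members at low CPM. Alternatives were RLE scaling, no filter, a filter of 1 CPM in 3 libraries, DESeq2 1.42.0, a block for the replicate number, and fits without each library in turn. Members and lists were chosen with earlier results of these data known. Named genes are Stk11, every member that passed, a set of ligands, receptors, SMADs and antagonists whatever their test, and from each further list the first 2 and the 4 lowest p; other members are named with levels, and list members that passed were named after their values were seen. Some items are not reported here.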

Additional observations from a re-analysis of the deposited data

How the results depend on the processing

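Depth limits the members below about 1 CPM. With 3 libraries per genotype 24% of simulated 2-fold changes were recovered, among genes above a minimum mean level that leaves such members out. No setting moved the median log2 fold change of all genes by over 0.1. When single libraries were left out, members that rose numbered 2 to 12 and that fell 1 to 5, all genes that rose 447 to 1368 and that fell 682 to 1412, further pathway genes that rose 1 to 8 and that fell 1 to 2, TGF-beta-induced genes that rose 2 to 8, and BMP-induced genes that rose 1 to 2 and that fell 0 to 1. Without a filter on low counts 12 members, 1917 genes, 11 further pathway genes and 2 BMP-induced genes rose. By DESeq2 1786 genes, 11 further pathway genes and 2 BMP-induced genes rose. The cause was not tested. Deviations of same-numbered libraries had correlations of 0.135, -0.021 and 0.115, and those of differently numbered libraries ran from -0.174 to 0.088. All were weak, and whether the numbers pair the libraries is not settled by them. With the replicate number as a block 8 members rose and 5 fell, of which 9 were among the 10, and 1336 genes rose and 1544 fell. Further pathway genes then had 6 higher and 4 lower, TGF-beta-induced genes 6 higher and 1 lower, and BMP-induced genes 1 each.

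Among members and the named genes of the further lists, signs turned for genes that did not pass. Smad7 was at 0.007 with RLE scaling, 0.015 without a filter and 0.008 by DESeq2, and with the block Bmpr1a was at -0.027 and Bmp8b at 0.276. Bmp2k was at 0.006 without a filter. Over the left-out libraries the log2 fold change ran from -0.353 to 0.227 for Smad7, -0.753 to 1.354 for Bmp8b, -0.125 to 0.123 for Bmp2k, -0.202 to 0.205 for Bmpr1a, -0.018 to 0.747 for Tgfb1, -0.693 to 0.055 for Bmp6, -0.060 to 0.583 for Bmpr2, -0.121 to 0.203 for Smad2, -0.181 to 0.269 for Smad6, -0.043 to 0.417 for Smurf2, -0.011 to 0.373 for Lefty1 and -0.184 to 0.220 for Id1.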
